A study of Mus musculus with 2 samples.

Results

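Blood endothelial cells line the inside of vessels, and 72 of the 1413 kept barcodes of a mouse pancreas single-cell RNA data set carried their transcripts. They were selected on their own counts: a barcode needed at least 2 unique molecular identifiers (UMIs, each standing for 1 captured transcript molecule) summed over Plvap, Cdh5, Egfl7, Esam and Kdr. It could hold at most 2 UMIs over the collagen and decorin genes Dcn, Col1a1, Col1a2 and Col3a1, and at most 1 UMI each over 6 T cell genes and over Cd79a and Cd79b of B cells. Kept barcodes had at least 200 detected genes and at most 20% of UMIs in mitochondrial genes. The mice carried R26[CA]30EYFP on the C57Bl/6J strain in both groups, a reporter in which a CA repeat keeps EYFP out of frame until the repeat changes length. Pancreatic cells labelled post-pancreatitis were sorted into EYFP+ and EYFP- cells, and each fraction made 1 library. Both libraries have None as their treatment label, and no source used here states how many animals were pooled, how old they were or when tissue was taken. EYFP itself is not among the counted genes, so the fractions rest on the sort labels alone.

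Capillary endothelium of the pancreas is fenestrated: its thin walls carry pores closed by diaphragms, for which plasmalemma vesicle-associated protein (Plvap) is required. Vascular endothelial growth factor (VEGF) acts on these cells through Kdr, with Flt1 and the neuropilins as decoy and co-receptors, while Notch ligands, Notch receptors and ephrin B2 mark arteries. Tip cells, the leading cells of sprouting vessels, are known for Esm1, Apln, Angpt2 and Dll4.

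The EYFP positive library gave 61 members of 860 kept cells, 7.09%, and the EYFP negative library gave 11 of 553, 1.99%. The whole libraries differed in depth: kept cells had a median of 1007.5 and 8020.0 UMIs, and 427 EYFP positive but 5 EYFP negative kept cells held under 1000. Members had a median of 1316.0 and 4236.0 UMIs. Each group is 1 library, so no difference here has a replicate check and no test was made. The 95% intervals are exact, Clopper-Pearson for shares, Poisson for a level and conditional binomial for a ratio, and cover counting error only. Where a count is 0, the limit given is 3 counts of the total, which bounds the share of barcodes with a UMI and not of cells expressing the gene. In summed UMIs, fewer cells of a kind and less RNA per cell cannot be told apart.

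Before the results, 3 of the 72 members were rich in ductal epithelial markers, against the label. EYFP positive members 60 and 61, counted by rising UMIs within the library, and EYFP negative member 11 held 22131, 53527 and 70711 UMIs. Each had exactly 2 UMIs of the selecting genes and 0 of Fabp4 and Aqp1. They held 822, 2249 and 2540 UMIs of 11 ductal epithelial markers, with 479, 1181 and 1118 UMIs of Spp1, the secreted phosphoprotein osteopontin, alone. They made up 29.87% of all EYFP positive member UMIs, and 61.66% on the EYFP negative side. Leaving them out therefore multiplied the ratio of any gene they lacked by 0.547. Since this alters directions, the levels that follow are those of the other 69 members, 59 EYFP positive with 177671 UMIs and 10 EYFP negative with 43963 UMIs, a choice made after seeing the data. Values over all 72 are given beside the lists and genes described in most detail.

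**Figure D1:**
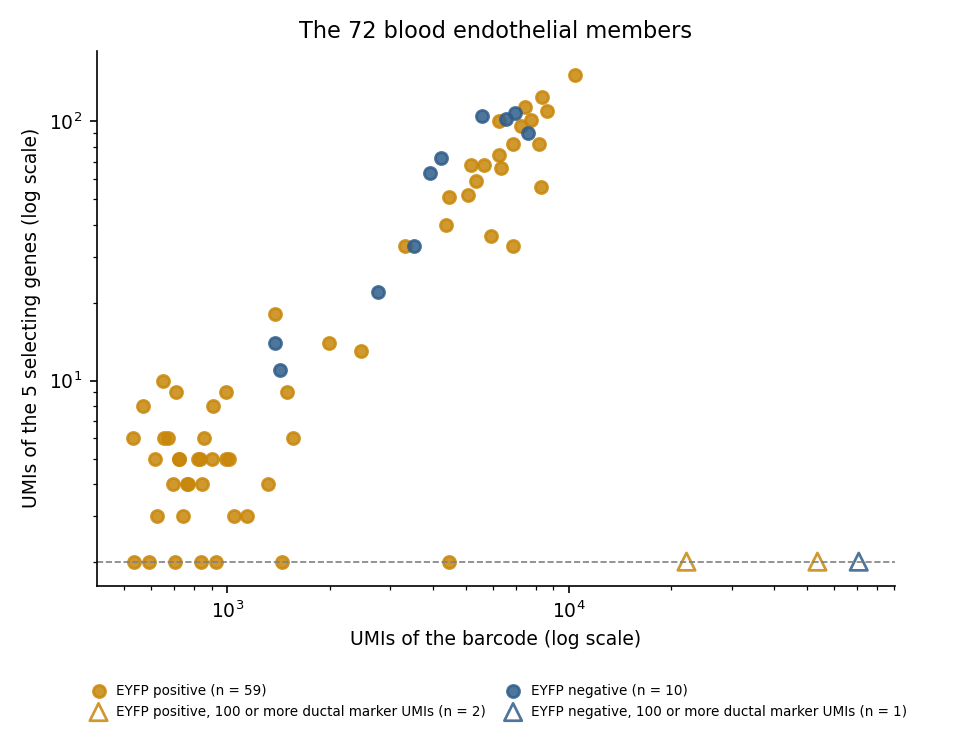
UMIs of the 5 selecting genes (vertical axis, log scale) against all UMIs of the barcode (horizontal axis, log scale) for the 72 members; each point is 1 barcode, triangles are barcodes with 100 or more ductal epithelial marker UMIs, and the dashed line is the lower limit of 2. The filled points reach up to 151 UMIs, while the 3 triangles lie at 2 UMIs at the greatest depths.

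Among the barcodes just inside the limit, 9 EYFP positive and 1 EYFP negative member had a sum of 2, and 4 and 0 had a sum of 3. Just outside it, 24 and 10 kept cells had a sum of 1, and 4 and 3 of these also held Fabp4 or Aqp1. Another 5 and 1 cells passed the endothelial limit but failed on fibroblast, T or B genes. The share of members depended on depth. At 5000 UMIs or more, the 69 took 18 of 175 barcodes of the EYFP positive library (10.3%, 6.21 to 15.8) and 4 of 478 of the EYFP negative one (0.837%, 0.229 to 2.13). Between 1000 and 5000 UMIs, the order was the other way, 14 of 258 (5.43%, 2.998 to 8.94) against 6 of 70 (8.57%, 3.21 to 17.7), with intervals that overlap. Under 1000 UMIs, 27 of 427 EYFP positive cells were members and 0 of 5 EYFP negative cells (exact upper bound 52.2%).

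The regulatory DNA of endothelial genes is known for binding sites of ETS factors such as Erg, Fli1 and Ets1, whose core reads GGAA. Promoter windows from 250 bases before to 50 bases after a gene's start were taken from RefSeq (GRCm38.p6) and searched for AGGAAG on both strands. Of the 5 selecting genes and the 24 listed pan-endothelial genes, 16 matched the table, and 10 of these 16 (62.5%) held the letters in at least 1 window, against 38.4% of all 27025 genes. By window of 300 bases the shares were 57.9% of 19 and 35.4% of 32851. Shown are windows of 3 genes that mark the members in both libraries, with each match in capitals (CTTCCT where it lies on the other strand), chosen after the matches were seen. Egfl7, a selecting gene and extracellular angiogenesis factor, is shown at chr2:26580833-26581132 on the plus strand, the window with the most matches of its 3, of which the others held 2 and 0. The window of Emcn, the surface mucin endomucin, lies at chr3:137340828-137341127 on the plus strand, and that of the VEGF receptor Flt1 at chr5:147725962-147726261 on the minus strand.
Egfl7: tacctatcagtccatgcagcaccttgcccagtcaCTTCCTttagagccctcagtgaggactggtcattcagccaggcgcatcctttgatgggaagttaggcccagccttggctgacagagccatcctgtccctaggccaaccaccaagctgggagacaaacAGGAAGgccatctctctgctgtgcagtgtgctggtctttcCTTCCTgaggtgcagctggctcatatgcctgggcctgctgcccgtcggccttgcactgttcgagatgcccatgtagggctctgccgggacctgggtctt
Emcn: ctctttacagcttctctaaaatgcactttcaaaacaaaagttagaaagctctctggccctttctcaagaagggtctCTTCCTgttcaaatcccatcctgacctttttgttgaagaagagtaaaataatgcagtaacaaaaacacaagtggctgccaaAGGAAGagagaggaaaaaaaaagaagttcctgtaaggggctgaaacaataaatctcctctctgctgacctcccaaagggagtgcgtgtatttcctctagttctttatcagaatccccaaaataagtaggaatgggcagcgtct
Flt1: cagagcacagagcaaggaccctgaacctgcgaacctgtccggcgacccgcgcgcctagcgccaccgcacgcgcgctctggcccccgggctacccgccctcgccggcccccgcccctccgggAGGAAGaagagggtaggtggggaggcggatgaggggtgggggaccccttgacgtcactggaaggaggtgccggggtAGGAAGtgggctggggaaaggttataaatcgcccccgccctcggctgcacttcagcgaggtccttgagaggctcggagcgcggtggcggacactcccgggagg
The 3 windows held 3, 2 and 2 matches. Of the selecting genes, Kdr was also in the table and its window had none. A match is a description of the letters and not of a bound site.

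In their summed UMIs, the 69 members carried endothelial genes beyond those that selected them. This does not hold for each barcode. EYFP positive members 11 and 40 had 0 UMIs of the pan-endothelial genes outside the selection, and 0 of Fabp4 and Aqp1. Of the selecting genes, Plvap stood at 3810 CPM (the UMIs of a gene as parts of 1e6 of the summed UMIs) (3529 to 4109) in EYFP positive and 5299.9 CPM (4641 to 6026) in EYFP negative members. Kdr stood at 2719 and 3571 CPM, Egfl7 at 1784 and 2138 CPM, the adherens junction cadherin Cdh5 at 1255 and 1683 CPM, and the adhesion molecule Esam at 619 and 1410 CPM. These values only restate the selection. Fabp4 and Aqp1, a fatty acid binding protein and a water channel, were given as markers but not used. Fabp4 stood at 5741 CPM (5394 to 6104) and 7302 CPM (6525 to 8146), and Aqp1 at 1266 CPM (1106 to 1443) and 1911 CPM (1524 to 2366). T cell barcodes of the same libraries had 5.33 and 0.828 CPM of Fabp4 and 0 UMIs of Aqp1.

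Taken cell by cell, Fabp4 was found in 53 of 59 EYFP positive members and in 10 of 10 EYFP negative members, and in 4 of 217 and 2 of 404 T cell barcodes. With each cell thinned to 500 UMIs it was found in 47 and 9 members, against 2 and 0 T cell barcodes (0 of 404, a limit of 0.743%). Plvap was found in 53 and 10 members before thinning and in 44 and 8 after it. In the 32 EYFP positive members with at least 1000 UMIs, Fabp4 ran from 0 over a median of 4706 to 12480 CPM, and in the 10 EYFP negative members from 1703 over 4848 to 18648 CPM. The ranges overlap widely.

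Pan-endothelial genes outside the selection were higher in the members than in the other kept cells of their library. A gene found almost only in members had to be higher, so counts here cover genes with at least 20 UMIs in the other cells alone, a minimum chosen after seeing the data. Of 11 such pan-endothelial genes 10 were at least 2-fold higher in EYFP positive members, beside 14.8% of all 9768 genes, and 7 of 7 in EYFP negative members, beside 27.2% of 9567. The exception was Tspan7, at 1.18-fold. Another 11 genes of the list in each library met the minimum of 20 UMIs only together with the members' own, the wider filter under which 17% of 10111 and 28.3% of 9720 genes reached the fold. Ranked by the lower interval bound under that filter, 8 of the 12 leading genes were shared by both libraries. Of these, Kdr, Plvap and Cdh5 were selecting genes, and Fabp4, Emcn, Flt1, the transcription factor Sox18 and Gpihbp1, the anchor of lipoprotein lipase on capillaries, were not. Emcn, Flt1, Sox18 and Gpihbp1 had under 20 UMIs in the other cells of both libraries, and Fabp4 had 35 and 9. Genes so rare in the other cells had to be higher in members, so the shared ranks and the ratios are a description only. Flt1 was at 3259 CPM in EYFP positive members against 3.61 CPM in the other cells, a ratio of 902 (472 to 1983), and at 3412 against 1.05 CPM in the EYFP negative library, a ratio of 3236 (1356 to 10112). Sox18 had 142 and 74 UMIs in members and 2 and 1 UMIs in all other kept cells.

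**Figure D2:**
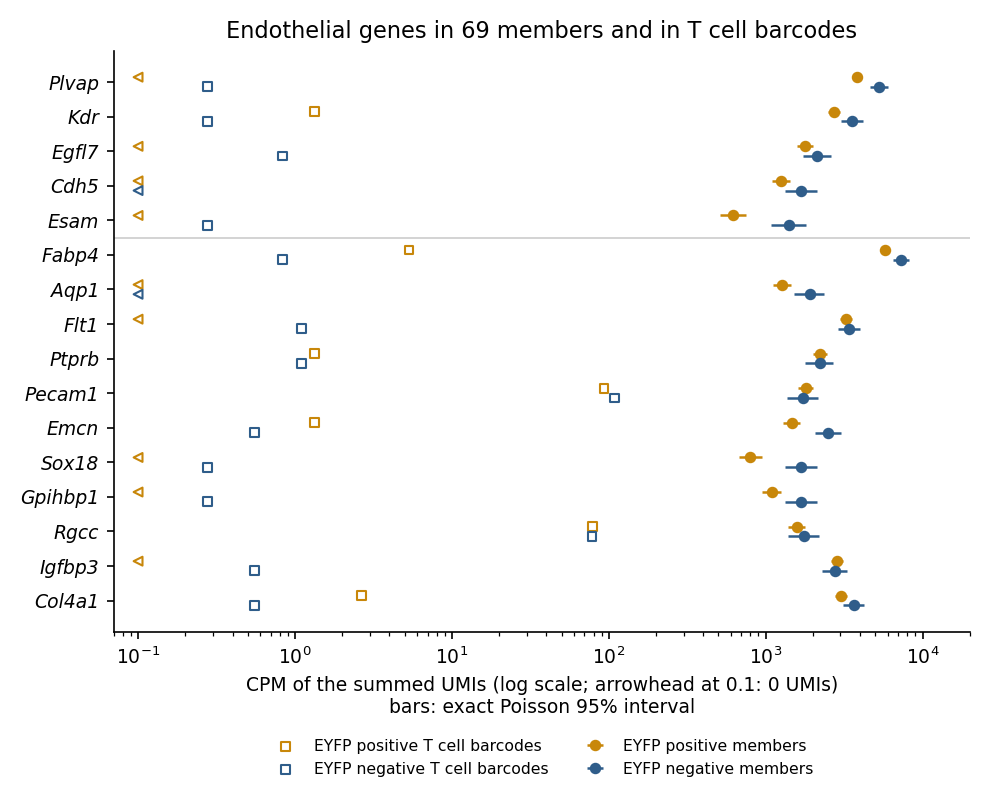
CPM of summed UMIs (horizontal log axis) for 16 endothelial genes in the 69 members (filled, 59 EYFP positive and 10 EYFP negative, bars are Poisson 95% intervals) and in T cell barcodes (open squares; arrowheads at 0.1 mark genes with 0 UMIs); genes above the grey line selected the members. Members of both libraries lie near or above 1000 CPM for most genes, while T cell barcodes lie under 6 CPM or at 0 except for Pecam1 and Rgcc.

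Other endothelial lists were counted the same way, over genes with at least 20 UMIs in the other cells. Of all such genes, 14.8% reached the fold in EYFP positive and 27.2% in EYFP negative members, the shares to set beside each count. Of transcription factors, 9 of 13 such genes were at least 2-fold higher in EYFP positive members and 7 of 11 in EYFP negative members. Gata2, under that minimum in the other cells, was at 449-fold and 324-fold, Fli1 at 7.83-fold and 5.08-fold, and Ets1, which T cells also express, at 2.06-fold and 1.37-fold. Capillary genes stood at 5 of 7 and 5 of 5, junction genes at 7 of 9 and 2 of 2, and VEGF, Tie and Notch signalling at 5 of 10 and 4 of 6. Basement membrane and matrix genes stood at 11 of 14 and 11 of 11. Interferon-related genes reached the fold at 15 of 17 and 15 of 18, among them Ly6e, Ifitm3 and Ifitm2. MHC class I genes did so at 5 of 13 and 2 of 13, the latter under the share of all genes. MHC class II genes did so at 0 of 7 in both libraries.

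Markers of other cells were low but not all absent. All 11 fibroblast markers had 0 UMIs, 4 of which the selection itself limits. The pericyte markers Rgs5, Pdgfrb and Cspg4 had 0 UMIs, and 14 mural genes summed to 10 and 5 UMIs, with 6 and 5 Tagln UMIs each from 1 member. Among lymphatic markers, Lyve1 and Pdpn had 0 UMIs, Prox1 had 1 and 0, and the VEGF receptor Flt4, which fenestrated blood capillaries also express, had 18 and 8. The proliferation genes Mki67 and Top2a had 0 UMIs in both libraries. The 12 leukocyte markers summed to 74 and 1 UMIs, of which 64 came from EYFP positive member 51. That member also held 223 of the 253 MHC class II UMIs, 38 of the 39 UMIs of the myeloid lysozyme Lyz2 and 5 of the 6 UMIs of the platelet chemokine Pf4. It was the 1 member that Scrublet marked as a doublet, and it carried 33 UMIs of the selecting genes. Member 40 had 48.45% acinar UMIs and 2 UMIs of the selecting genes, with 0 Fabp4 and Aqp1. Leaving out the barcodes with 100 or more ductal epithelial marker UMIs did not clear these markers. The other members held 100 and 3 such UMIs, in 32 EYFP positive and 2 EYFP negative members, a ratio of 8.25 (2.74 to 40.7). Of the 100, 31 lay in member 40. EYFP positive members 30 and 31 held 11 and 12, beside 3 and 4 UMIs of the selecting genes. Levels were 563 and 68.2 CPM, against 805 and 10.2 CPM in T cell barcodes.

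Among the vessel-type lists, capillary genes had the largest sum, and a few members held a large part of the arterial or venous UMIs. The 15 capillary and fenestrated genes summed to 16947 and 22178 CPM. At least 1 of their UMIs was found in 58 of 59 and 10 of 10 members. The list includes the selecting gene Plvap, with 677 and 233 UMIs in 53 and 10 members. That count of members therefore partly restates the selection. The cell-cycle regulator Rgcc was at 1576 CPM (1397 to 1772) and 1752 CPM (1382 to 2189), in 32 and 7 members. Gpihbp1 was at 1092 CPM (944 to 1257) and 1683 CPM (1322 to 2113), in 30 and 9 members. The carbonic anhydrase Car4 had 73 and 25 UMIs, and Cd300lg, a receptor of the CD300 family, had 146 and 52. Timp4 had 0 UMIs in both. In members with at least 1000 UMIs, the list ran from 224 over a median of 14573 to 32720 CPM in the EYFP positive and from 9790 over 17033 to 36400 CPM in the EYFP negative library.

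Some arterial genes were concentrated in 3 EYFP positive members, while Efnb2, Cxcl12 and Ltbp4 of the list were found in 20, 30 and 25. The list summed to 496 and 129 UMIs, 2792 and 2934 CPM, a ratio of 0.951 (0.782 to 1.16). Members 42, 44 and 46 held 62, 43 and 63 of these UMIs, 33.87% of the EYFP positive sum. The same 3 members held 18 of the 21 UMIs of the gap junction gene Gja4, 13 of the 20 UMIs of the Notch target Hey1 and both UMIs of Gja5, but 8 of the 27 UMIs of the transcription factor Sox17. They had 0, 5 and 0 Aqp1 UMIs and 2, 2 and 4 Rgcc UMIs, but 34, 17 and 25 Fabp4 UMIs. Their capillary-list sums were 71, 63 and 62 UMIs, so they carried capillary genes as well. None of the 10 EYFP negative members had a Hey1 or Gja5 UMI, a limit of 30.0% on members with a UMI. The share of EYFP positive members with a Hey1 UMI, 9 of 59, lay under that limit. In summed UMIs, Hey1 was at least 1.65-fold higher in EYFP positive members, taken against a floor of 3 UMIs, with a lower interval bound of 1.22. That fold falls short of the 2-fold size rule. For Gja5, at 2 and 0 UMIs, a difference was not detectable at this depth. EYFP negative Gja4 came to 4 UMIs in 3 members.

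Venous-list UMIs were concentrated in 1 member. EYFP positive member 55, with 8173 UMIs, held 28 of the 53 venous-list UMIs, among them all 6 of von Willebrand factor (Vwf), all 6 of the leukocyte adhesion receptor Vcam1 and 6 of the 7 of the venous transcription factor Nr2f2. It had 0 UMIs of Rgcc, Gpihbp1 and Esm1. The same member also held 188 of the 3011 capillary-list UMIs, with 102 of Fabp4, 41 of Plvap, 14 of Aqp1 and 17 of the 71 of Cd36. It thus did not lack capillary genes as a list. In EYFP negative members the venous list came to 11 UMIs, all of Ephb4, the receptor for ephrin B2. These cells were picked out after their values were seen, and the lists were not tested in them.

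The tip and angiogenic list summed to 6597 and 8484 CPM, a sum that includes the collagen IV chains Col4a1 (3022 and 3639 CPM) and Col4a2 (1908 and 2252 CPM). In members with at least 1000 UMIs, list CPM ran from 0 over 6079 to 13442 in the EYFP positive and from 1806 over 6163 to 15777 in the EYFP negative library. The most UMIs of the list were found in EYFP positive member 56 (107) and EYFP negative member 10 (120). The sprouting genes Angpt2 (6 and 5 UMIs) and Apln (5 and 4 UMIs) were near the floor in both libraries.

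**Figure D3:**
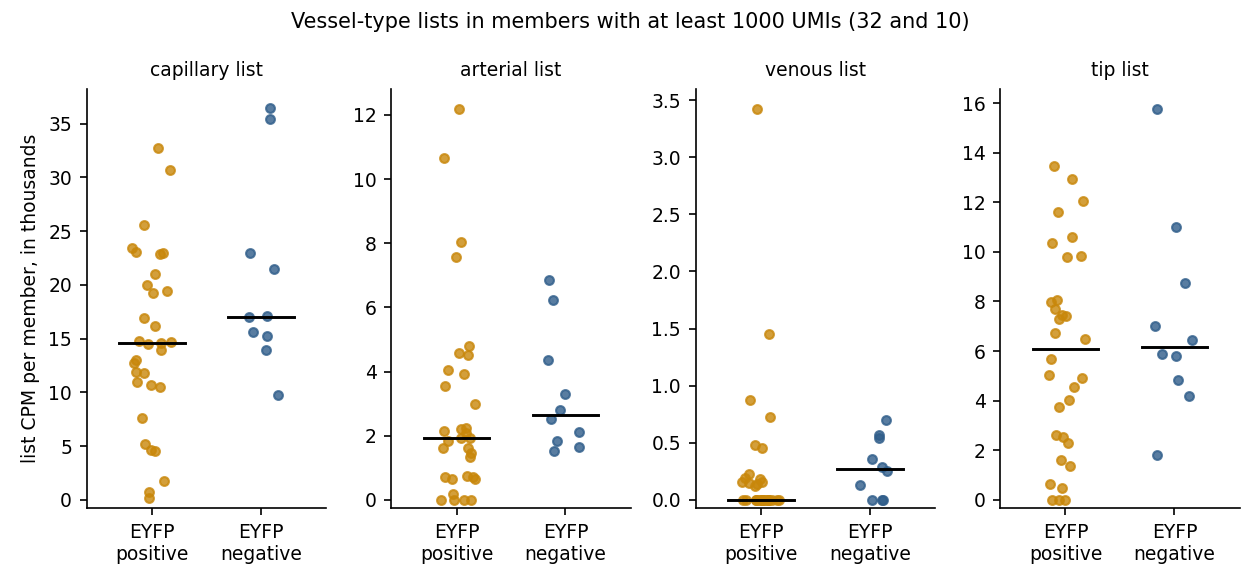
CPM of 4 vessel-type gene lists, drawn as CPM divided by 1000, in each of the 32 EYFP positive and 10 EYFP negative members with at least 1000 UMIs; points are members and lines are medians, and each panel has its own linear axis from 0. Capillary values spread widely in both libraries, the highest arterial value is 12195 CPM and the highest venous value 3426 CPM, both in the EYFP positive library.

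The comparison of EYFP positive with EYFP negative members asks whether endothelial cells of the sorted fractions carried different transcripts. Over all 72 members, 250 of 3552 measured genes (7.04%) were at least 2-fold higher in the EYFP positive library and 329 (9.26%) at least 2-fold lower. Over the 69, 197 of 1973 (9.98%) were higher and 196 (9.93%) lower. The median log2 ratio over all measured genes was -0.10 for the 72 and -0.21 for the 69. With a total that leaves out acinar, mitochondrial and ribosomal genes, Lars2 and Gm42418, the median of the 69 was 0.02 and the split was 268 higher and 95 lower. The ratios below are for the 69 members on the full total, so the typical measured gene stands slightly under 1.

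On the full counts, the core endothelial genes differed little. None of the 21 measured pan-endothelial genes reached 2-fold in either direction, and their median log2 ratio was -0.31, beside -0.21 for all genes (0.38 over the 72, -0.08 with the smaller total). With each cell thinned to 500 UMIs, 0 of 11 measured genes were higher and 5 lower, beside 15.67% and 18.43% of all 217. Their median log2 ratio was then -0.89, beside -0.28 for all genes. The thinned list sums gave a ratio of 0.572 (0.464 to 0.710). Pecam1 was at 1807 CPM (1614 to 2016) and 1729 CPM (1362 to 2164), a ratio of 1.05 (0.812 to 1.36). Flt1 stood at a ratio of 0.955 (0.797 to 1.15) and the phosphatase Ptprb at 1.01 (0.807 to 1.28). Emcn was lower, 1463 CPM against 2502 CPM, a ratio of 0.585 (0.466 to 0.738), but over the 72 its ratio was 1.07. Plvap and Kdr had ratios of 0.719 (0.619 to 0.838) and 0.761 (0.635 to 0.917), which turned to 1.32 and 1.39 over the 72. These 3 genes thus changed direction with the membership of the 3 epithelial-rich barcodes.

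Of the selecting genes only Esam passed 2-fold, with 110 and 62 UMIs and a ratio of 0.439 (0.319 to 0.609). The smaller total gave 0.518 and the 72 members 0.803. Ratios of selecting genes, those of Plvap and Kdr included, come from the counts that chose the members and are a description only. In members with at least 1000 UMIs, Esam ran from 0 over 498 to 1514 CPM and from 0 over 1103 to 2797 CPM. The EYFP positive median lay lower, with ranges that overlap. Among 15 measured transcription factors, 0 were higher and 2 lower, beside 9.98% and 9.93% of all measured genes. The 2 were Sox18 with 799 against 1683 CPM, a ratio of 0.475 (0.356 to 0.638), and Elk3, an ETS-family repressor, at 0.478 (0.303 to 0.770). Both stood under 2-fold with the smaller total (0.560 and 0.564) and over the 72 (0.869 and 0.877). The hypoxia factor Epas1 and Mef2c were at 0.983 and 1.01.

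In VEGF, Tie and Notch signalling, 1 of 14 measured genes stood at 2-fold or more higher and 2 lower. The selecting gene Kdr is among the 14 and passed 2-fold in neither direction. Beside 9.98% and 9.93% of all measured genes, these counts do not set the list apart. Its median log2 ratio was -0.31, beside -0.21 for all genes. Nrp2, a neuropilin that serves as co-receptor for VEGF-C and for semaphorins (chromosome 1, 62703285 to 62818695, plus strand), had 61 UMIs in 23 EYFP positive members and 2 UMIs in 1 EYFP negative member. That is 343 CPM (263 to 441) against 45.5 CPM (5.51 to 164), a ratio of 7.55 (2.00 to 63.7). It was 8.90 with the smaller total, 7.95 in members with at least 1000 UMIs and 13.8 over the 72. No EYFP positive member held more than 9 of the 61 UMIs. Its relative Nrp1 was at 1520 and 1774 CPM, a ratio of 0.857 (0.664 to 1.12). The receptor Notch4 had 19 and 17 UMIs, a ratio of 0.277 (0.136 to 0.566), and the ligand Dll4 13 and 8 UMIs, a ratio of 0.402 (0.155 to 1.12). Notch1 was at 0.601 and the ligand Jag2 at 0.990.

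Among the arterial and tip lists, Efnb2 and Esm1 were higher. Ephrin B2 (Efnb2, chromosome 8, 8617434 to 8661242, minus strand), the arterial partner of Ephb4, had 70 UMIs in 20 members and 6 UMIs in 4, which is 394 CPM (307 to 498) against 137 CPM (50.1 to 297), a ratio of 2.89 (1.26 to 8.13). No member held more than 9 of the 70. Ephb4 itself had 19 and 11 UMIs, a ratio of 0.427 (0.193 to 0.994). The arterial list as a whole had 1 gene higher and 1 lower of 10 measured, beside 9.98% and 9.93% of all measured genes. Its median log2 ratio was 0.27. Over the 72 members 7 of 11 were higher, beside 7.04% of all measured genes. With each cell thinned to 500 UMIs, 1 gene of the list was still measured, at -1.18, and the list sums of 78 and 12 UMIs gave a ratio of 1.102 (0.596 to 2.22).

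Esm1, the secreted proteoglycan endocan (chromosome 13, 113209659 to 113218098, plus strand), had 84 UMIs in 17 of 59 EYFP positive members and 5 UMIs in 4 of 10 EYFP negative members. The level was 473 CPM (377 to 585) against 114 CPM (36.9 to 265), a ratio of 4.16 (1.71 to 13.1), and 3.57 as a mean over cells. The share of members with an Esm1 UMI was 28.8% (17.8 to 42.1) in the EYFP positive library, inside the interval of 12.2 to 73.8% in the other. The most Esm1 UMIs in 1 member were 18 against 2. In T cell barcodes 1 of 217 and 2 of 404 had an Esm1 UMI. After thinning to 500 UMIs per cell, 11 and 2 UMIs were left and the ratio was 0.932, so the difference was not detectable at that depth. The other called genes of the list were lower: Aplnr, the apelin receptor, at 0.430 (0.237 to 0.80), Pdgfb, which recruits pericytes, at 0.447 (0.271 to 0.752), Vwa1 at 0.272 (0.105 to 0.715), and Dll4. With the smaller total Aplnr and Pdgfb fell short of 2-fold (0.507 and 0.527), which left 2 of the 4, and over the 72 members 1 gene of the list was lower, with Aplnr and Pdgfb at 0.786 and 0.871.

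**Figure D4:**
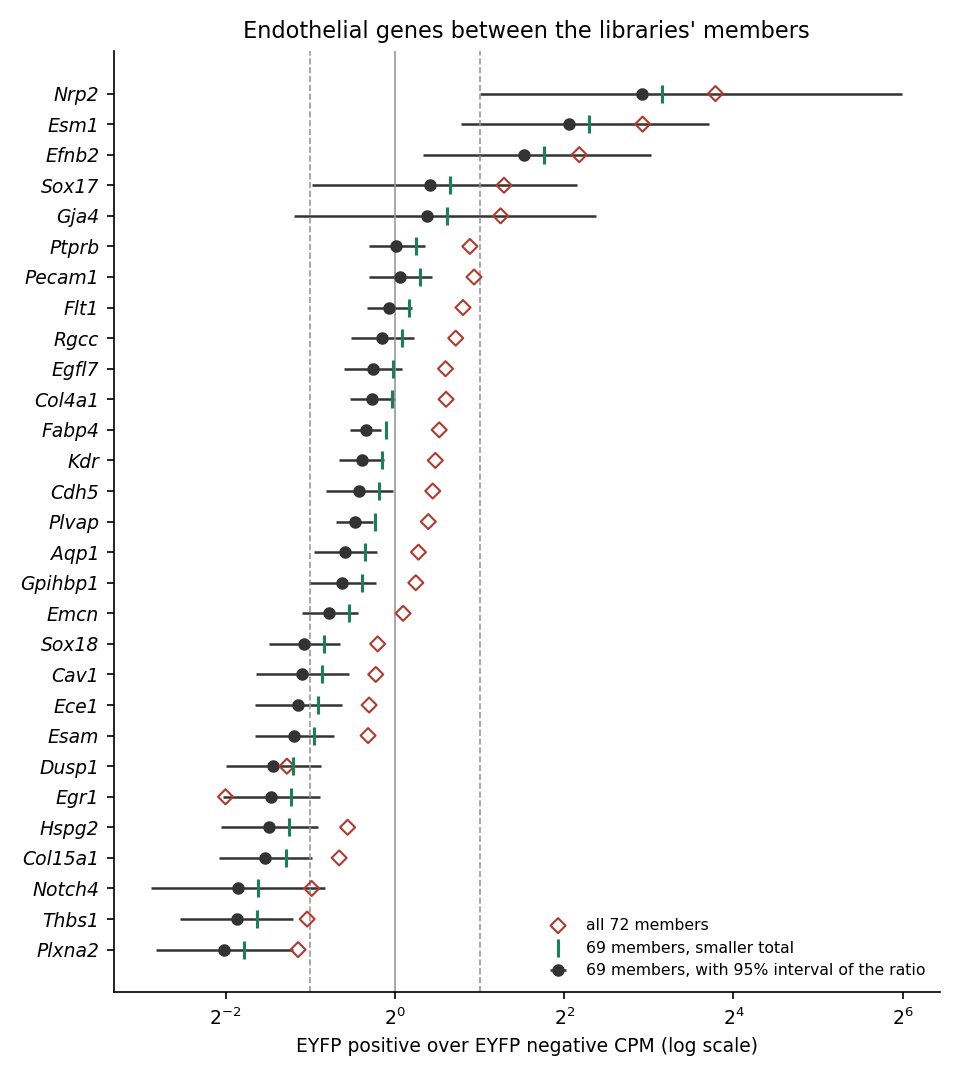
Ratio of EYFP positive to EYFP negative CPM (log axis) for 29 endothelial genes in the 69 members (black, bars are the 95% interval of the ratio), over all 72 members (open red diamonds) and for the 69 with the smaller total (green ticks), which leaves out acinar, mitochondrial and ribosomal genes, Lars2 and Gm42418; dashed lines mark 2-fold either way. Nrp2, Esm1 and Efnb2 lie to the right with every setting shown, and every diamond but that of Egr1 lies to the right of its black point.

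Basement membrane and matrix genes had 4 of 13 measured members at 2-fold or more lower and 0 higher, beside 9.93% and 9.98% of all measured genes. Their median log2 ratio was -0.27, beside -0.21 for all genes. With the smaller total 2 of 13 were lower, beside 4.815% of all measured genes, and over the 72 members 1 of 15, beside 9.26%. Col15a1, a collagen of the outer basement membrane, had 70 and 50 UMIs, 394 CPM (307 to 498) against 1137 CPM (844 to 1499), a ratio of 0.346 (0.238 to 0.508). Hspg2, the heparan sulfate proteoglycan perlecan, had 65 and 45 UMIs, a ratio of 0.357 (0.241 to 0.535). Lama4 and Nid1 had ratios of 0.433 (0.204 to 0.966) and 0.495 (0.258 to 0.990). With the smaller total, Col15a1 and Hspg2 were at 0.408 and 0.421, the other 2 fell short of 2-fold, and over the 72 Col15a1 and Hspg2 were at 0.634 and 0.679. Igfbp7, Igfbp3 and Sparc of the same list had ratios of 0.731, 1.03 and 0.854.

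Vascular tone and coagulation genes had 6 of 12 measured members lower and 0 higher, beside 9.93% and 9.98% of all measured genes. Their median log2 ratio was -1.0, beside -0.21 for all genes (-0.13 beside -0.10 over the 72). With the smaller total 1 of the 6 was still past 2-fold, where 4.815% of all measured genes were lower. Over the 72 members 1 of 12 was lower, beside 9.26%. That gene was Thbs1, the anti-angiogenic matrix protein thrombospondin, with 42 and 38 UMIs and a ratio of 0.274 (0.172 to 0.436), and 18 of the EYFP negative UMIs lay in member 8. The others were Edn1, Ece1, Ace, Ptgs1 and Ramp3, at ratios from 0.451 to 0.495. Ece1, the endothelin-converting enzyme, was at 523 CPM (423 to 641) and 1160 CPM (864 to 1525), found in 26 and 10 members. All 8 Edn1 UMIs of the EYFP negative library came from 1 member. Thrombomodulin (Thbd) was at 0.787 (0.482 to 1.34).

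Junction genes had 1 higher and 3 lower of 11, caveolar and transcytosis genes 0 and 2 of 10, and BMP and TGF-beta signalling 0 and 2 of 11. Of all measured genes, 9.98% were higher and 9.93% lower. Esam, 1 of the 3 lower junction genes, was a selecting gene. Cdh5 of the junction list and Plvap of the caveolar list were selecting genes too, and neither passed 2-fold. With the smaller total 0 junction, 1 caveolar and 2 BMP genes were lower, beside 4.815% of all measured genes. Over the 72 members the counts were 0, 0 and 1, beside 9.26%. Caveolin (Cav1) had 85 and 45 UMIs, a ratio of 0.467 (0.322 to 0.687), which was 0.551 with the smaller total and 0.855 over the 72. Cavin2 was at 1.06 (0.817 to 1.38) and Ehd4 at 0.942 (0.680 to 1.33). The BMP receptor Acvrl1 was at 0.418 (0.259 to 0.686) and its co-receptor Eng at 0.662 (0.499 to 0.888), and the target Id3 was at 0.813 (0.616 to 1.09). Over the 72 members Eng and Id3 turned to 1.22 and 1.49, and Acvrl1 was at 0.765. Of 7 measured genes of fatty acid handling, Fabp5 was higher, with 59 and 6 UMIs and a ratio of 2.43 (1.05 to 6.90), and Acsl5 with 18 and 2 UMIs at 2.23 (0.533 to 19.8). In members with at least 1000 UMIs, Fabp5 was at 1.86. Leukocyte adhesion had 0 genes past 2-fold of 5 measured. The selectin Sele had 0 UMIs in both libraries and Selp 1 and 0.

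In the 69 members, 0 of 12 MHC class I genes passed 2-fold, and their median log2 ratio was -0.51, beside -0.21 for all genes. H2-K1 was at 0.592 (0.476 to 0.741) and B2m at 0.646 (0.518 to 0.810). Over the 72 the median turned to 0.26, beside -0.10 for all genes. There 2 of 12 were higher, beside 7.04% of all measured genes, and H2-K1 and B2m were at 0.987 and 1.07. All 4 measured MHC class II genes were higher, but their UMIs lay mostly in member 51: 60 of 76 for Cd74, 61 of 64 for H2-Aa, 49 of 56 for H2-Ab1 and 40 of 44 for H2-Eb1. Without that member and member 40, H2-Ab1 had a ratio of 0.793. Of 13 interferon-related genes 3 were higher and 1 lower, beside 9.98% and 9.93% of all measured genes. The interferon-inducible GTPase Iigp1 had 48 UMIs in 17 members and 4 UMIs in 4, a ratio of 2.97 (1.09 to 11.3). No EYFP positive member held more than 9 of the 48 Iigp1 UMIs. Ifitm3 and Bst2 were at 0.966 and 1.04.

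Immediate early and stress genes had 0 higher and 3 lower of 17 measured, beside 9.98% and 9.93% of all measured genes. Their median log2 ratio was -0.55, beside -0.21 for all genes. The 3 were Egr1 at 0.363 (0.245 to 0.543), Dusp1 at 0.369 (0.251 to 0.545) and Nr4a1 at 0.186 (0.0801 to 0.418). Fos was at 0.773 (0.515 to 1.19) and Jun at 1.25 (0.987 to 1.604). Over the 72 members, 9 of 17 were lower, beside 9.26% of all measured genes, and the median was -1.08. Of the 163 EYFP negative Egr1 UMIs, 118 were in member 11. Of 9 measured genes of the unfolded protein response 2 were higher, the chaperones Hspa5 (67 and 8 UMIs, ratio 2.07, 0.994 to 4.996) and Canx (39 and 3 UMIs, 3.22, 1.02 to 16.3), and 2 lower, Atf4 and Pdia6. For this list too, the shares of all measured genes were 9.98% higher and 9.93% lower. Over the 72, Hspa5 and Canx were at 1.105 and 1.12.

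Ranked by the interval bound nearest to 1, the other leading genes that were lower included Plxna2, a semaphorin receptor, with 28 and 28 UMIs and a ratio of 0.247 (0.141 to 0.434). Of its EYFP negative UMIs 16 lay in member 8. Lamp2, a lysosomal membrane protein, was at 0.261 (0.130 to 0.528), and the matricellular Ctgf at 0.143 (0.0616 to 0.317), with 12 of its 19 EYFP negative UMIs in member 10. Over the 72 members the ranking brought up other lower genes. Ints2 (48 of 48), Wwc1 (46 of 46), Fxyd3 (39 of 39), Sox9 (179 of 179), Chka (64 of 64) and Rgs2 (38 of 38) had all their EYFP negative UMIs in member 11. Gadd45b had 21 of 22, Cited2 19 of 24 and Ndufb6 18 of 25 there.

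Acinar secretory RNA took a larger share on the EYFP positive side among members and among T cell barcodes. All 20 measured acinar secretory genes were higher in EYFP positive members, with a median log2 ratio of 5.33, and the list made up 2.353% and 0.0341% of the members' UMIs. T cell barcodes held 1.883% and 0.00897%. Ctrb1, a chymotrypsinogen of acinar cells, was at 3219 CPM in EYFP positive members and 2732 CPM in T cell barcodes, against 68.2 and 11.3 CPM in the EYFP negative library. In EYFP positive members under 1000 UMIs the acinar share ran from 0.353% over a median of 3.54% to 14.4%, and in T cell barcodes of that depth the median was 3.55%. Above 5000 UMIs the median was 0.360% in members and 0.151% in T cell barcodes. Member 40 held 2162 of the 4181 acinar UMIs. Lars2 and Gm42418 together took 10.25% and 1.458% of member UMIs, 37.15% in EYFP positive members under 1000 UMIs, and 7.543% and 0.321% in T cell barcodes. The smaller total, which also leaves out mitochondrial and ribosomal genes, raised each endothelial ratio by the same factor, and the part of acinar RNA, Lars2 and Gm42418 alone was not tested.

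**Figure D5:**
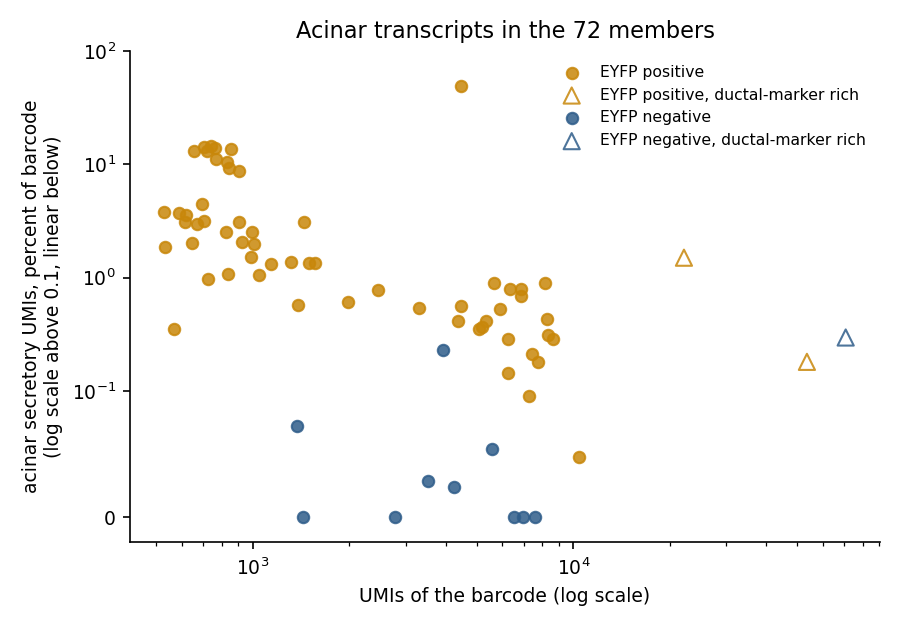
Acinar secretory UMIs as a percent of each barcode (vertical axis, log scale above 0.1 and linear below) against its UMIs (horizontal log axis) for the 72 members; triangles are the 3 barcodes rich in ductal markers. EYFP positive members lie between 0.048% and 48.45%, and every EYFP negative circle lies under 0.230%.

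Tff2, Nupr1 and Lyz2 also had 0 UMIs in EYFP negative members and were at least 2.80-fold, 2.80-fold and 3.22-fold higher, taken against a floor of 3 UMIs over the group. Of Tff2, a trefoil peptide of the epithelium, 17 of the 34 UMIs lay in member 40, and T cell barcodes of the EYFP positive library held 164 CPM of it. Of Nupr1, a stress factor of acinar cells in pancreatitis, 21 of 34 lay in the same member, and T cell barcodes held 609 CPM. Rb1, the retinoblastoma cell-cycle inhibitor, had 29 UMIs in 17 EYFP positive members and 0 in EYFP negative members, at least 2.39-fold higher, with 9.33 and 27.6 CPM in T cell barcodes.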

How the data were processed

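Single-cell RNA libraries of EYFP+ and EYFP- sorted mouse pancreatic cells, 1 each, were made with a Chromium 5′ kit, per the labels' protocols. The deposited matrices hold raw UMI counts, 1 whole number for each gene in each barcode, 4006807 UMIs in 1717 barcodes and 5295816 in 745. The submitters' processing notes name Cell Ranger 2.1.0 and build GRCh38, while the file headers name software version 3.1.0 and the identifiers are mouse Ensembl ones. The mapping build is therefore not taken as known, and gene positions were looked up by identifier in GENCODE M21. How strand and overlapping genes were treated is stated in no source used here.

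The members, gene lists and most alternatives were chosen with earlier results of these data known. Counts were read in Python 3.11.15 with scipy 1.17.1 and numpy 2.4.6. UMIs were summed per library over members, divided by the sum's total (CPM) and compared as EYFP positive over EYFP negative, with 95% intervals. Genes with at least 20 UMIs over both sums were measured (against the other cells, counts need 20 UMIs there alone), and 2-fold was the size rule. A sum of 0 was set at a floor of 3 UMIs, which makes the fold a bound. List medians use log2 with a pseudocount of 0.5 UMI, and carry no test. T cell barcodes had at least 2 UMIs of the 6 T cell genes and under 2 of the selecting genes. Thinned cells were drawn down to 500 UMIs. Scrublet in scanpy 1.11.5 marked 2 and 5 kept cells as doublets, which stayed in. The libraries shared 4 barcode sequences, 1 of them a member's.

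Named were the selecting genes and 6 markers, up to 4 genes per list by UMIs (up to 3 for other cells' markers), the 10 genes each way with at least 30 UMIs whose interval bound was farthest from 1, and the 12 leading genes against the other cells. Mitochondrial, ribosomal, predicted, sex-linked and acinar genes were left out of the rankings. List genes past 2-fold and the single members described were named after their values were seen. The ratio step was tested on simulated counts. Other cell filters, limits of the selection, totals and depths were tried as alternatives.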

Additional observations from a re-analysis of the deposited data

Results flagged for a closer look

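Signal of the selecting genes was also found among barcodes left out by the cell filter. In the EYFP positive library, 8 of the 857 excluded barcodes passed the limits on endothelial, fibroblast, T and B genes, and 4 of the 8 also held Fabp4 or Aqp1. They had 524 to 32976 UMIs (median 1083.0), 4 had under 200 detected genes and 4 had over 20% mitochondrial UMIs, with a range from 3.175% to 79.2%. In the EYFP negative library 0 of 192 excluded barcodes passed, which allows up to 1.56%. These barcodes enter no comparison.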

How the results depend on the processing

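With 1 library per group, no replicate could be left out, and no paired analysis was possible because each group has 1 sample. The EYFP positive share of 7.09% moved to 9.20% with a stricter cell filter (500 genes, 10% mitochondrial UMIs) and to 4.88% without members that hold 3 or more UMIs of leukocyte, mural, erythroid or ductal markers, and kept within its interval under the other settings, as did the EYFP negative share under all of them. The 250 higher genes (7.04% of 3552) became 159 (11.85% of 1342) without members holding RNA of another type, 38 (17.12% of 222) after thinning to 500 UMIs and 952 (11.42% of 8333) with no minimum on UMIs. The 329 lower genes became 123, 39 and 1237 under these settings (9.165%, 17.57% and 14.84%), 151 of 1938 with a selecting sum of at least 3 and 1029 of 3546 as a mean over cells. Among settings chosen after seeing the data, leaving out the 3 epithelial-rich members gave 196 of 1973 lower genes. Among the 69, leaving out members 40 and 51 gave 162 of 1900, leaving out members under 1000 UMIs gave 129 of 1887, the smaller total gave 95 of 1973, and thinning gave 34 higher and 40 lower of 217.

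Some directions turned. Esm1 had ratios of 0.992 (72 members) and 0.932 (69) after thinning, and the arterial median log2 ratio was then -1.09 and -1.18. In the 69 that is 1 measured gene, and the list sum did not turn (ratio 1.102). H2-Ab1 was at 0.691 with the stricter cell filter, 0.552 without members holding RNA of another type and 0.793 without members 40 and 51. Without the member with the most UMIs in each library, Sox9 was at 1.76, Gadd45b at 1.1 and the cell cycle median at 1.66. Gadd45b was also at 1.24 in the 69, 1.06 without members 40 and 51, 1.46 with the smaller total and 1.18 as a mean over cells. EYFP negative member 11 held all 179 Sox9 UMIs and 21 of the 22 Gadd45b UMIs of its library, and for the other reversals the cause was not tested. Thinning leaves 500 UMIs per cell, so most genes fall under 20 UMIs and 222 were measured.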

Other observations

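Hemoglobin transcripts were scattered over the members. The 6 erythroid markers summed to 114 UMIs in 23 EYFP positive members and 11 UMIs in 7 EYFP negative members. EYFP positive member 11, with 702 UMIs, held 45 of the 114, of which 31 were Hbb-bs. T cell barcodes held 1469 and 3889 CPM of these markers, above the 642 and 250 CPM of the members.

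Endocrine markers came to 34 and 0 UMIs in the 69 members. Ins2, the insulin gene, had 9 UMIs in 4 EYFP positive members, 5 of them in member 54, which also carried 101 UMIs of the selecting genes. T cell barcodes of that library held 14.6 CPM of Ins2 and the members 50.7 CPM (23.2 to 96.2).

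Gm42418 and AY036118 overlap on chromosome 17 (39846958 to 39848788, plus strand, and 39847113 to 39848035, minus strand) and moved in opposite directions between the libraries. Gm42418 stood at 96786 and 14262 CPM in the members, a ratio of 6.79 (6.27 to 7.36), and AY036118 at 360 and 1570 CPM, a ratio of 0.230 (0.161 to 0.327). In T cell barcodes AY036118 was at 398 and 374 CPM. Reads of overlapping genes cannot be told apart without knowing how strand was counted.

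Cell cycle genes came to 42 and 19 UMIs. Pcna had 7 and 8 UMIs, a ratio of 0.217 (0.0668 to 0.683), and Hmgb2 17 and 1 UMIs, a ratio of 4.21 (0.659 to 176).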
